A study of Mus musculus with 26 samples.

Results

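Cadherins and protocadherins were followed in mouse neural progenitor cells that differentiated into astrocytes with or without tumor necrosis factor (TNF), an inflammatory cytokine. The genes were all those whose single symbol on the array is Cdh or Pcdh followed by a number or a cluster name, and where a gene had several probe sets, the one with the highest mean over all arrays was read. They were 57 of the 19938 genes with a single symbol: 35 outside the β-protocadherin cluster and the 22 genes *Pcdhb1* to *Pcdhb22*. No α- or γ-cluster gene had a probe set of its own, and 4 probe sets that list a member beside other genes were not used. Neurospheres (NSPs) had been grown from neural stem cells of the ventricular zone of C57BL/6J embryos at embryonic day 14. The paper grew NSPs with epidermal growth factor (EGF). At 0 h they were moved to poly-L-ornithine in medium with 10% fetal bovine serum, for which it lists no EGF. Comparisons with 0 h therefore cannot tell time in culture apart from plating and the change of medium. TNF-treated NSPs received 50 ng/mL TNF from 0 h and were collected at 6, 24 and 48 h (3 arrays each) and at 72 h (2 arrays). Untreated NSPs were collected at the same times and at 0 h (3 arrays each), which makes 26 arrays in 9 groups. Values are log2 signals of Affymetrix mouse gene arrays, so that a difference of 1 is a doubling, and they cannot be compared between genes.

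Cadherins are membrane proteins that hold cells together through calcium-dependent repeats outside the cell, and the classical ones are tied to actin inside it through catenins. N-cadherin, encoded by *Cdh2*, keeps neural stem cells joined in the ventricular zone, and type II cadherins sort neurons and glia into groups. Protocadherins adhere more weakly. Those encoded by the α, β and γ clusters are switched on in different combinations from cell to cell, which gives each neuron a surface identity. The non-clustered δ protocadherins act in cell sorting, migration and the wiring of neurons.

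The cultures were bulk samples, in which fewer cells of a type and less RNA per cell cannot be told apart. Markers fixed for 8 cell types were read on the same arrays. *Gfap*, the intermediate filament of astrocytes, averaged 13.5 in untreated cells at 72 h and 9.0 at 0 h. Of 10 astrocyte markers 4 were higher and 0 lower at 72 h (40%, against 22.8% of all probe sets). Of 9 neural progenitor markers 4 were higher and 2 lower at 72 h (66.7%, against 22.8% of all probe sets). *Nes* averaged 12.14 at 72 h and 11.16 at 0 h, and *Hes5* 9.06 and 11.23. Of 10 neuronal markers 1 was higher and 1 lower (20%). Of 10 markers of epithelium and ependyma 2 were higher and 0 lower (20%). Of 10 endothelial markers, 6 were among the dimmest 40% of probe sets by their mean over all arrays, *Pecam1* (6.79) and *Tie1* (6.76) with them, and *Egfl7* was brightest (7.89). In untreated cells *Kdr*, a receptor of endothelium, was higher at 72 h (7.43, against 6.85 at 0 h). It was the 1 endothelial marker of 10 with a change above 0 at that time, and the list had a median change of -0.23. At 24 h 2 of the 10 were lower than at 0 h and 0 were higher (20%). Over all probe sets 16.5% were called at 24 h, 6.51% lower. Of 10 microglial markers 7 were dim, *Aif1* (6.38) and *Csf1r* (6.29) with them, and *Cd68* was brightest (8.84). *Acta2*, a smooth muscle actin, averaged 12.49 at 72 h and 8.40 at 0 h in untreated cells. It was among 3 of 10 mural cell and fibroblast markers higher at 72 h, and 0 were lower (30%, against 22.8% of all probe sets). The mean over that list was 7.70 to 7.90 in the arrays at 72 h and 7.05 to 7.35 at 0 h. Of 9 oligodendrocyte lineage markers, 4 were lower and 0 higher in untreated cells at 72 h than at 0 h (44.4%). Over all probe sets 22.8% were called at 72 h, 10.2% lower. *Cspg4* averaged 8.48 at 72 h and 10.50 at 0 h. With TNF at 24 h, 2 markers of these lists were called. They were 1 of 10 astrocyte and 1 of 10 microglial markers (10% each, against 0.863% of all probe sets). *Gja1*, a gap junction gene of astrocytes, averaged 11.82 with TNF and 12.92 without, and *Cd68* 11.04 and 8.91. The part of these markers in the changes below was not tested.

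In untreated cells 23 of the 57 genes passed a q-value of 0.05 at 1 or more times against 0 h, 13 of them upward and 10 downward. *Cdh6* was higher and *Cdh10* lower at all 4 times. *Cdh4*, *Cdh13*, *Cdh20*, *Pcdh17* and *Pcdh18* were lower at 48 and 72 h, and 9 genes of the β cluster were higher at 72 h. With TNF, 1 gene passed at 1 time: *Cdh20* was lower at 24 h. Among all 35556 probe sets, 7.67% to 22.8% were called at single untreated times and 0.326% to 1.15% at single times with TNF. The share of all probe sets called at 1 or more untreated times was not counted. The 23 of 57 therefore cannot be set against these shares. The map of all changes shows both sides.

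**Figure D1:**
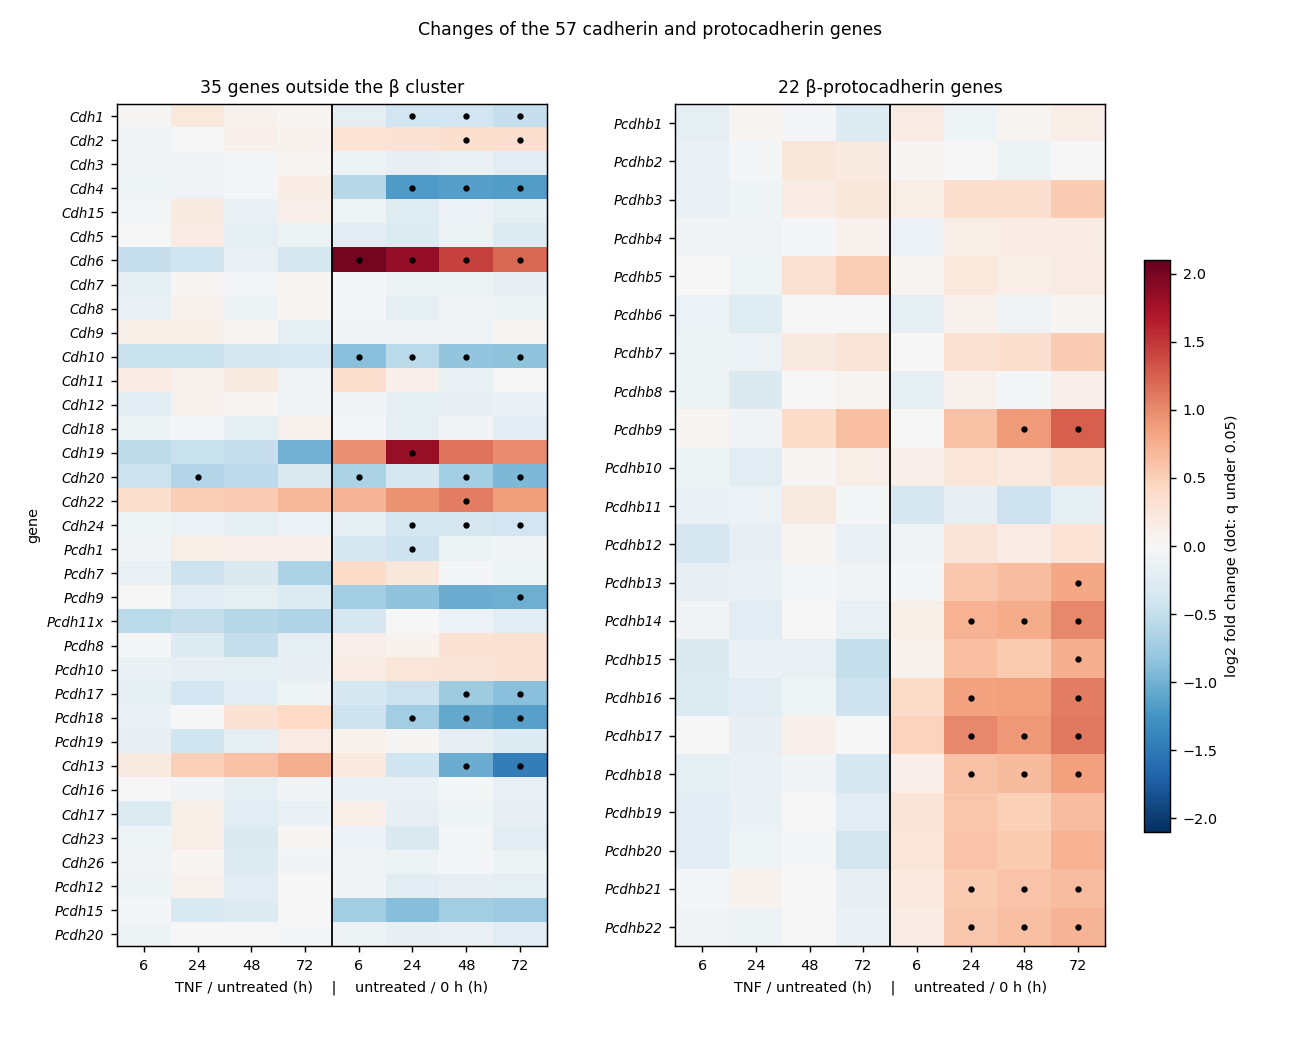
Log2 fold changes of the 57 genes (rows) in 8 comparisons (columns): TNF over untreated cells at the 4 times, then untreated cells at those times over 0 h; black dots mark q-values under 0.05. One dot lies in the TNF columns, at *Cdh20*, and the dots of the β cluster lie in its lower rows and, at 48 and 72 h, at *Pcdhb9*.

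The untreated comparisons ask which cadherins change as progenitors become astrocytes. At 6 h, 1 member was higher and 2 were lower (5.26% of 57, against 7.67% of all 35556 probe sets, 4.64% higher and 3.03% lower). At 24 h, 8 were higher and 6 lower (24.6% of members, 16.5% of all, 10% higher and 6.51% lower). At 48 h, 9 were higher and 8 lower (29.8%, against 16% of all, 8.99% higher and 6.97% lower). At 72 h, 11 were higher and 9 lower (35.1%, against 22.8% of all, 12.6% higher and 10.2% lower). The q-values come from limma over all probe sets, and the 4 comparisons share the 3 arrays at 0 h. Groups that did not overlap counted 3 above and 3 below 0 h at 6 h (15.2% of all probe sets in either direction), 10 above and 10 below at 24 h (24%), 11 above and 8 below at 48 h (22.3%) and 15 above and 11 below at 72 h (28.9%). The median change over the members was -0.02, 0.01, -0.04 and 0.00 at 6, 24, 48 and 72 h, against -0.02, -0.05, -0.04 and -0.055 over all probe sets.

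These counts moved with single arrays. At 6 h, 2 members were higher without 0 h replicate 1 or 6 h replicate 1 and 3 without 0 h replicate 2, and 5 were lower without 0 h replicate 2 and 4 without 6 h replicate 2. At 24 h, 5 were higher without 0 h replicate 2, 24 h replicate 1 or 24 h replicate 3, 4 without 24 h replicate 2 and 13 without 0 h replicate 3, and 3 were lower without 24 h replicate 2 or 24 h replicate 3. At 48 h, 4 were higher without 0 h replicate 2 and 3 without 48 h replicate 3, and 5 were lower without 48 h replicate 2. At 72 h, 7 were higher without 0 h replicate 2 and 17 without 0 h replicate 3. In a fit of only the 6 arrays compared, 1, 2, 1 and 3 members were higher and 0, 2, 4 and 6 lower at 6, 24, 48 and 72 h.

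Same-numbered arrays deviated together at 6, 48 and 72 h, so a fit with the replicate number as a block also applies there. With that block, 3 members were higher and 3 lower at 6 h. It added *Cdh22* (0.72, q = 0.0242), *Pcdh7* (0.38, q = 0.0115) and *Pcdh9* (-0.72, q = 0.0112). At 48 h it gave 14 higher and 11 lower, adding *Pcdh8*, *Pcdhb13*, *Pcdhb15*, *Pcdhb16* and *Pcdhb19* upward and *Pcdh9*, *Pcdh15* and *Pcdhb11* downward. At 72 h it gave 17 higher and 13 lower. It added *Cdh22*, *Pcdh8*, *Pcdhb3*, *Pcdhb7*, *Pcdhb19* and *Pcdhb20* upward and *Cdh3*, *Cdh5*, *Pcdh15* and *Pcdh19* downward. The block raised the counts over all 35556 probe sets as well. With it 2690, 4338 and 5826 were higher and 2017, 4181 and 6329 lower at 6, 48 and 72 h. Without it 1649, 3197 and 4470 were higher and 1078, 2480 and 3644 lower.

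Sequence upstream of a RefSeq start was available for 22 of the 32 members on chromosomes other than 18. It is shown for *Cdh6*, which rose, for *Cdh10* and *Cdh20*, which fell by 6 h, and for *Pcdh18*, which fell from 24 h on. Each line gives the 250 bases before 1 RefSeq start in build GRCm38.p6, 5′ to 3′ on the gene's strand. That start need not be the outermost one. The full span of *Cdh6* is chr15:13028699-13176407 and that of *Cdh10* chr15:18818869-19016206, so both their stretches lie inside the gene. Sequence before the outer ends of these 2 genes was not searched. The full span of *Cdh20* is chr1:104768340-104995481 and that of *Pcdh18* chr3:49743291-49757383, so their stretches lie partly inside the gene. Capitals mark motif matches on either strand. *Cdh6* lies at chr15:13173676-13173925 (minus), *Cdh10* at chr15:18820079-18820328 (plus), *Cdh20* at chr1:104768270-104768519 (plus) and *Pcdh18* at chr3:49757317-49757566 (minus).
Cdh6: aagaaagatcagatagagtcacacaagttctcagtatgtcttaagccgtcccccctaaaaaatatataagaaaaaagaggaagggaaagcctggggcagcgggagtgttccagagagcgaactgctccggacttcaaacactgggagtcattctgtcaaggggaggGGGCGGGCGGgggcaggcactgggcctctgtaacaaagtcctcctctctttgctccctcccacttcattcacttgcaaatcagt
Cdh10: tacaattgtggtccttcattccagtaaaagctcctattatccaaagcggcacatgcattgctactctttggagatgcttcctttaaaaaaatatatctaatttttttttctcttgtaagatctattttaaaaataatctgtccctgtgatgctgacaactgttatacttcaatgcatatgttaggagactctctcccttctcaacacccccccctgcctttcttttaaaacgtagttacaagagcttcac
Cdh20: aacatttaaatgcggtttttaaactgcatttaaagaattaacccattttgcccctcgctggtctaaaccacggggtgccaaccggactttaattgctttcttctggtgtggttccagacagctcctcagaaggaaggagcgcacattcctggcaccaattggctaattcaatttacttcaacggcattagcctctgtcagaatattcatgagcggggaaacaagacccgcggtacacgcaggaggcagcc
Pcdh18: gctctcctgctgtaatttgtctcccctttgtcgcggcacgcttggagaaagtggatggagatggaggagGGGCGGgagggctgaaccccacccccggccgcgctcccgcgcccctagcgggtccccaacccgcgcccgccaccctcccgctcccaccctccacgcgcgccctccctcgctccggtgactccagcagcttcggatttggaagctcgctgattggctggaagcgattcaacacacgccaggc
The motifs searched were the E-box CAGGTG that ZEB and Snail repressors bind, the GC box GGGCGG, the TATA box TATAAA, the AP-1 site TGANTCA and the κB site that NF-κB binds (GGG, any 2 bases, TTTCC). Over 32536 distinct upstream stretches of the same length, 17.3%, 33.0%, 12.3%, 6.73% and 1.4% held them, in that order. *Cdh6* held 2 overlapping GC boxes, 84 and 80 bases before the start, and *Pcdh18* held 1 at 181 bases. *Cdh10* and *Cdh20* held none of the 5 motifs in these letters. G and C made up 51.2% of the bases of *Cdh6*, 36.8% of *Cdh10*, 47.6% of *Cdh20* and 68.0% of *Pcdh18*, against a median of 52.4% over all.

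*Cdh6*, a type II cadherin known from kidney and from the early divisions of the forebrain, had the largest change of any member at 6 h. Its arrays read 9.40, 9.21 and 9.43 at 0 h, 11.30, 11.29 and 11.47 at 6 h, 11.00, 11.42 and 11.16 at 24 h, then 10.59, 11.05 and 10.70 at 48 h. At 72 h its arrays read 10.39, 10.77 and 10.50. Every later array was above every array at 0 h, and the group means were highest at 6 h. The changes against 0 h were 2.01, 1.85, 1.43 and 1.21 at 6, 24, 48 and 72 h (SE 0.161 each), with limma q-values of 6.9e-08, 8.49e-08, 1.8e-06 and 8.37e-06. The difference between 72 h and 6 h was not tested.

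*Cdh10*, a type II cadherin of the same chromosome, moved the other way. Its signals were 10.63, 10.47 and 10.75 at 0 h, 9.45, 10.01 and 9.75 at 6 h, 10.24, 9.85 and 10.05 at 24 h, then 9.91, 9.47 and 10.00 at 48 h. The last group, at 72 h, had 9.87, 9.48 and 9.98. No later array reached the lowest at 0 h. It fell by 0.88, 0.57, 0.82 and 0.84 at 6, 24, 48 and 72 h (SE 0.186 each), and the q-values were 0.0039, 0.0259, 0.0029 and 0.00139. The call at 24 h was lost without 0 h replicate 1 or 3 or without 24 h replicate 2 or 3 (changes of -0.67 to -0.47 over the 6 arrays left out). The other members on chromosome 15, *Cdh9*, *Cdh12* and *Cdh18*, were dim and were called at no time.

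*Cdh20*, a type II cadherin, was the other gene that fell by 6 h. It read 11.37, 11.65 and 11.53 at 0 h, 10.85, 10.85 and 10.89 at 6 h, 11.30, 11.09 and 11.12 at 24 h, then 10.84, 10.64 and 10.95 at 48 h. The 72 h arrays were at 10.59, 10.40 and 10.72. All later arrays were below those at 0 h. The changes were -0.66, -0.35, -0.71 and -0.95 (SE 0.139 each), with q-values of 0.0039, 0.0581, 0.000891 and 2.51e-05 at 6, 24, 48 and 72 h, so that 24 h was not called. *Cdh19*, a type II cadherin known from Schwann cell precursors, rose at 24 h. *Cdh19* read 9.40, 9.80 and 9.45 at 24 h and 7.02, 7.98 and 8.18 at 0 h, a change of 1.82 (SE 0.480, q = 0.00818). Without 24 h replicate 2 it was no longer called, over changes of 1.47 to 2.05 with 1 array left out.

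Among the 5 type I classical cadherins, *Cdh2* rose slightly and *Cdh4* fell. *Cdh2*, which encodes N-cadherin, read 12.34, 12.74 and 12.40 at 72 h and 12.22, 12.11 and 12.09 at 0 h. Its change was 0.34 at 48 h (q = 0.0464) and 0.35 at 72 h (SE 0.122 each, q = 0.025). The call was lost at 72 h without 0 h replicate 2 or 72 h replicate 2 (changes of 0.23 to 0.43), and at 48 h without any of 4 arrays, replicates 2 and 3 of either time (0.25 to 0.40). *Cdh4*, the R-cadherin of retina and brain, read 10.77, 11.39 and 11.08 at 0 h, 10.12, 10.99 and 10.32 at 6 h, 9.93, 9.88 and 9.88 at 24 h, then 9.99, 9.92 and 9.87 at 48 h. By 72 h it stood at 10.03, 9.87 and 9.83. Its later arrays came close together, below all at 0 h from 24 h on. It changed by -1.18, -1.15 and -1.17 at 24, 48 and 72 h (SE 0.221 each, q-values 0.000562, 0.000706 and 0.000354). *Cdh1*, which encodes the E-cadherin of epithelia, was dim and read 6.93, 6.91 and 6.81 at 72 h and 7.67, 7.06 and 7.37 at 0 h (-0.49, SE 0.127, q = 0.00498). It was also called lower at 24 h (-0.40, q = 0.0229) and 48 h (-0.40, q = 0.0267). Both earlier calls were lost without 0 h replicate 1 or replicate 2 or 3 of the later time (changes of -0.55 to -0.25 at 24 h and -0.55 to -0.24 at 48 h).

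*Cdh13* and *Cdh22* took opposite courses. *Cdh13* encodes T-cadherin, which lacks an inner domain and is held by a lipid anchor. It read 10.48, 11.21 and 11.05 at 0 h, 10.88, 11.21 and 11.25 at 6 h, 10.37, 10.77 and 10.34 at 24 h, then 9.64, 10.22 and 9.75 at 48 h. The arrays at 72 h read 9.36, 9.61 and 9.41. The groups at 48 and 72 h lay wholly below 0 h, with changes of -1.04 and -1.45 (SE 0.184 each, q-values 0.00032 and 4.55e-06). *Cdh22*, a type II cadherin known from pituitary and brain, read 9.72, 10.61 and 9.80 at 48 h and 8.38, 10.09 and 8.44 at 0 h. Replicate 2 was high at both times, and the groups overlapped (1.07, SE 0.369, q = 0.0387). This call was lost without replicate 1 or 3 of 0 h or replicate 2 or 3 of 48 h (changes of 0.78 to 1.63).

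**Figure D2:**
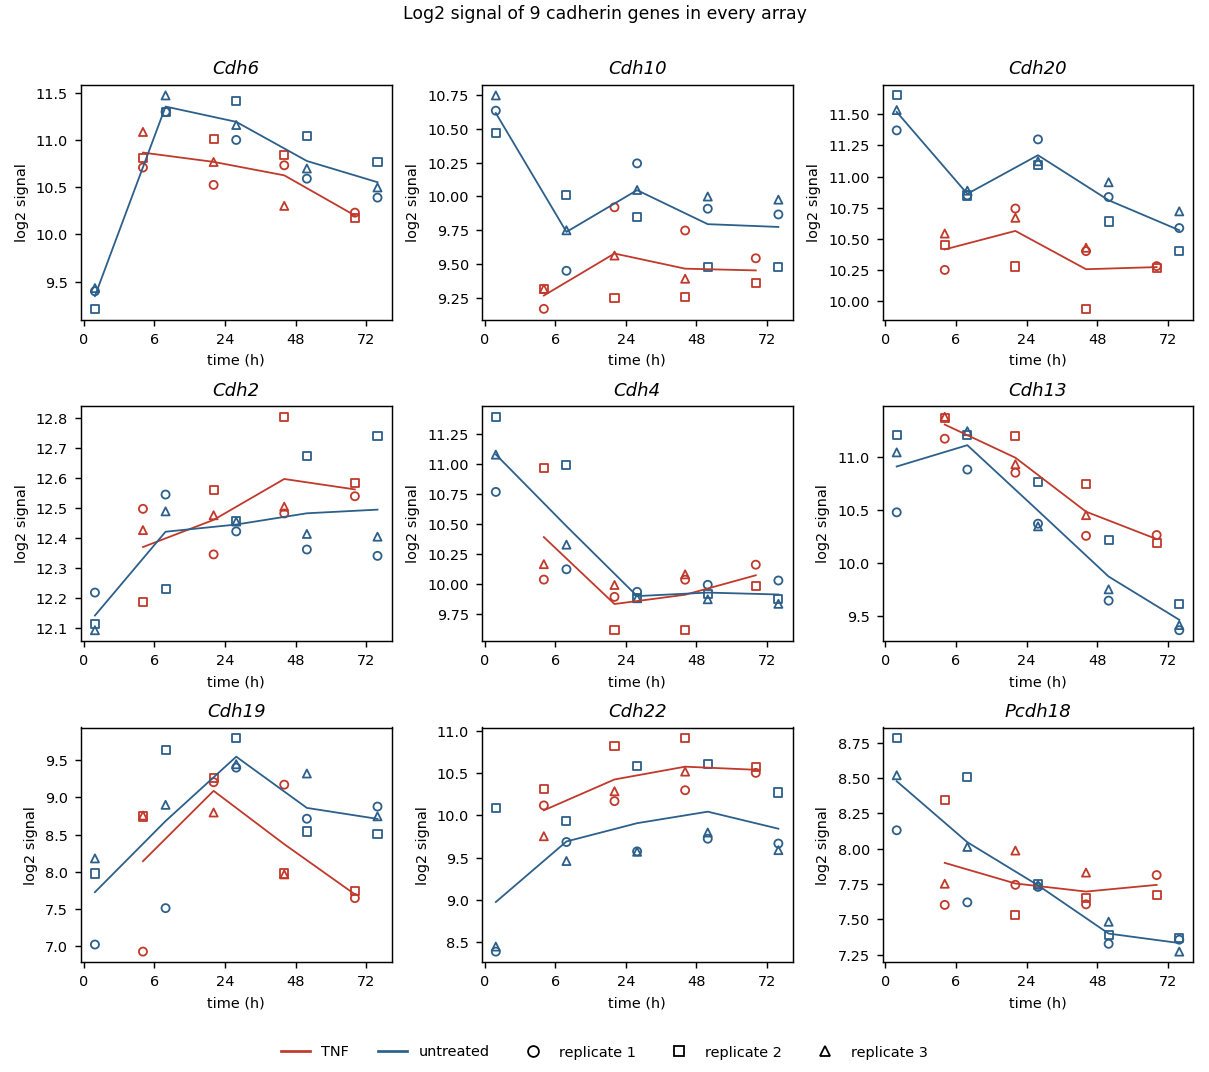
Log2 signal (y axis) of 9 genes against time in hours (x axis, even spacing); red symbols are TNF-treated and blue symbols untreated arrays, with shapes for the replicate number and lines through the group means. *Cdh6* steps up by 6 h, *Cdh4*, *Cdh13* and *Pcdh18* decline, and red points of *Cdh20* lie below the blue ones at each time.

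*Cdh24*, a type II cadherin, had small but tight shifts. It read 8.16, 8.17 and 8.21 at 72 h and 8.56, 8.65 and 8.51 at 0 h (-0.40, SE 0.0908, q = 0.00193), and it was lower at 24 h (-0.38, q = 0.00456) and 48 h (-0.36, q = 0.00675) too. The call at 48 h was lost without 48 h replicate 2 (changes of -0.40 to -0.28). *Cdh11*, a type II cadherin expressed in mesenchyme and in migrating neural cells, had changes of 0.33, 0.11, -0.16 and 0.00 at 6, 24, 48 and 72 h, none of which passed. *Cdh5*, the VE-cadherin of endothelium, read between 6.61 and 7.38 over the 26 arrays and was dim.

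The 4 δ protocadherins called without the replicate block, *Pcdh1*, *Pcdh9*, *Pcdh17* and *Pcdh18*, fell. With the block *Pcdh7* was higher at 6 h (0.38, q = 0.0115) and *Pcdh8* at 48 h (0.31, q = 0.0267) and 72 h (0.32, q = 0.0138). *Pcdh18*, of the δ2 group, read 8.13, 8.78 and 8.52 at 0 h, 7.62, 8.51 and 8.01 at 6 h, 7.73, 7.75 and 7.74 at 24 h, then 7.33, 7.39 and 7.48 at 48 h. At 72 h it had 7.36, 7.37 and 7.27. From 24 h on all arrays lay below 0 h, with changes of -0.74, -1.08 and -1.15 (SE 0.197 each, q-values 0.00888, 0.000442 and 0.000138). *Pcdh17*, also δ2, read 8.50, 8.03 and 8.60 at 72 h and 9.62, 8.91 and 9.21 at 0 h (-0.87, SE 0.239, q = 0.00698). Without 72 h replicate 2 it was not called (changes of -1.04 to -0.68). Its call at 48 h (-0.75, q = 0.0265) was lost without 0 h replicate 1 or 48 h replicate 2 or 3 (-0.93 to -0.55).

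*Pcdh9*, a δ1 protocadherin, read 10.04, 9.38 and 10.00 at 72 h and 11.18, 10.09 and 11.23 at 0 h (-1.03, SE 0.384, q = 0.0356). Replicate 2 was low at both times, and the call was lost when any of 5 of the 6 arrays was left out, all but 0 h replicate 2 (changes of -1.40 to -0.81). With the replicate block its SE was 0.189 and its q-value 0.000235. *Pcdh1* was dim and was called lower at 24 h only (-0.43, SE 0.130, q = 0.0172), a call lost without 0 h replicate 1 or 24 h replicate 2 or 3 (-0.55 to -0.29). *Pcdh10*, a δ2 gene, read 11.65, 11.41 and 11.78 at 72 h and 11.65, 10.73 and 11.57 at 0 h, a change of 0.30 (SE 0.170, q = 0.129). *Pcdh19*, the δ2 gene mutated in an epilepsy of girls, read 8.52, 8.63 and 8.70 at 72 h and 8.82, 8.99 and 8.87 at 0 h, without overlap (-0.27, SE 0.129, q = 0.0798). *Pcdh12*, known from endothelium, read between 6.78 and 7.78 over the 26 arrays and was called in no comparison.

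In the β cluster most of the genes called were higher. Its 22 genes lie in a row on chromosome 18, each with a whole coding exon and a promoter that is chosen at random in single neurons. Without the replicate block 6 of them were higher at 24 h and at 48 h (27.3% each, against 10% and 8.99% of all probe sets) and 9 at 72 h (40.9%, against 12.6%), and none was lower. With the block, *Pcdhb11* was lower at 48 h (-0.43, q = 0.0482). The median changes were 0.09, 0.45, 0.43 and 0.585 at 6, 24, 48 and 72 h. Of the 22 changes 14, 20, 18 and 21 were above 0 at those times. The largest change was that of *Pcdhb9*, which read 8.80, 8.19 and 9.05 at 72 h and 7.31, 7.0 and 7.97 at 0 h, so that the groups did not overlap (1.25, SE 0.247, q = 0.000539). *Pcdhb14* read 9.39, 9.27 and 9.58 at 72 h and 8.46, 7.93 and 8.80 at 0 h (1.01, SE 0.190, q = 0.00033). *Pcdhb17* read 9.22, 8.76 and 9.08 against 8.22, 7.10 and 8.39 (1.11, SE 0.277, q = 0.00357). The other genes higher at 72 h were *Pcdhb13* (0.81), *Pcdhb15* (0.77), *Pcdhb16* (1.07), *Pcdhb18* (0.86), *Pcdhb21* (0.65) and *Pcdhb22* (0.71), with q-values of 0.00139 to 0.0275. *Pcdhb19* read 10.31, 10.06 and 10.34 at 72 h and 9.94, 8.82 and 10.03 at 0 h, without overlap, and did not pass (0.64, SE 0.269, q = 0.0553). The genes are similar in sequence, and how far a probe set reads its neighbors was not tested.

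Place in the row went with the size of the change. Of the last 11 genes, *Pcdhb12* to *Pcdhb22*, 8 were higher at 72 h. Their changes ran from 0.29 to 1.11 (median 0.77). Of the first 11, 1 was, *Pcdhb9*, and their changes ran from -0.19 to 1.25 (median 0.155). At 24 h 6 of the last 11 and none of the first 11 were higher, with medians of 0.60 and 0.14. Across the 22 genes, place and change at 72 h had a Spearman rho of 0.61 and a Pearson r of 0.60. For TNF over untreated cells at 72 h, where no gene of the cluster was called, they were -0.63 and -0.58. Both describe genes read on the same arrays, which are not independent. The split into 11 and 11 was made after the values had been seen.

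**Figure D3:**
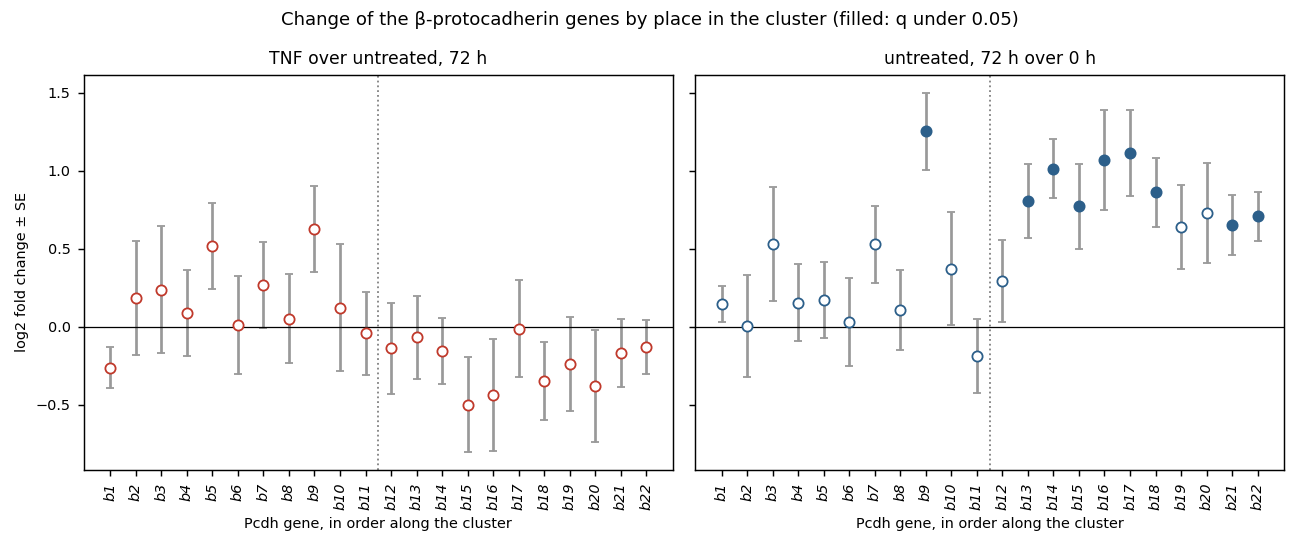
Log2 fold change with its SE (y axis) of the 22 β-protocadherin genes in their order along the cluster (x axis), for TNF over untreated cells at 72 h (left) and for untreated cells at 72 h over 0 h (right); filled points passed a q-value of 0.05. On the right 8 filled points lie past the dotted midline, and on the left none is filled.

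The rise in the β cluster was largest in replicate 2. That replicate was the lowest of the 3 in all 22 genes, both at 0 h and as a mean over the 5 untreated times. Averaged over the last 11 genes, replicate 1 read 9.50 at 72 h and 8.90 at 0 h, replicate 2 9.26 and 7.95, and replicate 3 9.46 and 9.0. The differences were 0.60, 1.31 and 0.46, upward in all 3 replicates. For the first 11 genes they were 0.23, 0.59 and 0.03. Without 0 h replicate 2, *Pcdhb13*, *Pcdhb15*, *Pcdhb16* and *Pcdhb21* were no longer called at 72 h, and *Pcdhb15* was also lost without any 72 h array (changes of 0.36 to 1.32 over these genes with 1 array left out). The calls of *Pcdhb9*, *Pcdhb14*, *Pcdhb17*, *Pcdhb18* and *Pcdhb22* at 72 h held without each of the 6 arrays in turn. In a fit of only the 6 arrays compared, *Pcdhb9* and *Pcdhb14* were the only genes of the cluster still called at 72 h. No gene of the cluster was called at 24 or 48 h in such a fit. At 24 h *Pcdhb16*, *Pcdhb17*, *Pcdhb18* and *Pcdhb21* were lost without 0 h replicate 2, and all of these but *Pcdhb17* also without any 24 h array (changes of 0.25 to 1.25 over the 4 genes). At 48 h *Pcdhb9*, *Pcdhb17*, *Pcdhb18* and *Pcdhb21* were lost without 0 h replicate 2 or 48 h replicate 3, *Pcdhb18* and *Pcdhb21* also without 48 h replicate 1, and *Pcdhb18* without 48 h replicate 2 (0.30 to 1.17).

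Replicates also differed outside the cluster. Of the 35 genes there, 20 had their lowest mean over the untreated times in replicate 2, 7 in replicate 1 and 8 in replicate 3. The widest gap was in *Pcdh15*, whose product forms the tip links of hair cells with that of *Cdh23*: its untreated means were 8.47, 7.07 and 8.58 in replicates 1, 2 and 3. *Pcdh11x*, a δ1 gene of the X chromosome, averaged 10.78, 9.92 and 10.61, and *Pcdh9* averaged 10.41, 9.55 and 10.36. *Cdh22* went the other way, at 9.41, 10.30 and 9.37. In *Pcdh15* the arrays numbered 2 read 6.69 to 7.57 in the 8 other groups, while TNF at 72 h read 7.90 in the array numbered 1 and 7.89 in the one numbered 2. Whether the number 2 marks the same culture there is not known. As the block shares the effect of each number between all groups, this limits its values at every time, most directly at 72 h with TNF. When all arrays numbered 2 were left out, an alternative chosen after these values were seen, 3, 3, 5 and 9 members were higher and 4, 6, 9 and 10 lower at 6, 24, 48 and 72 h.

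**Figure D4:**
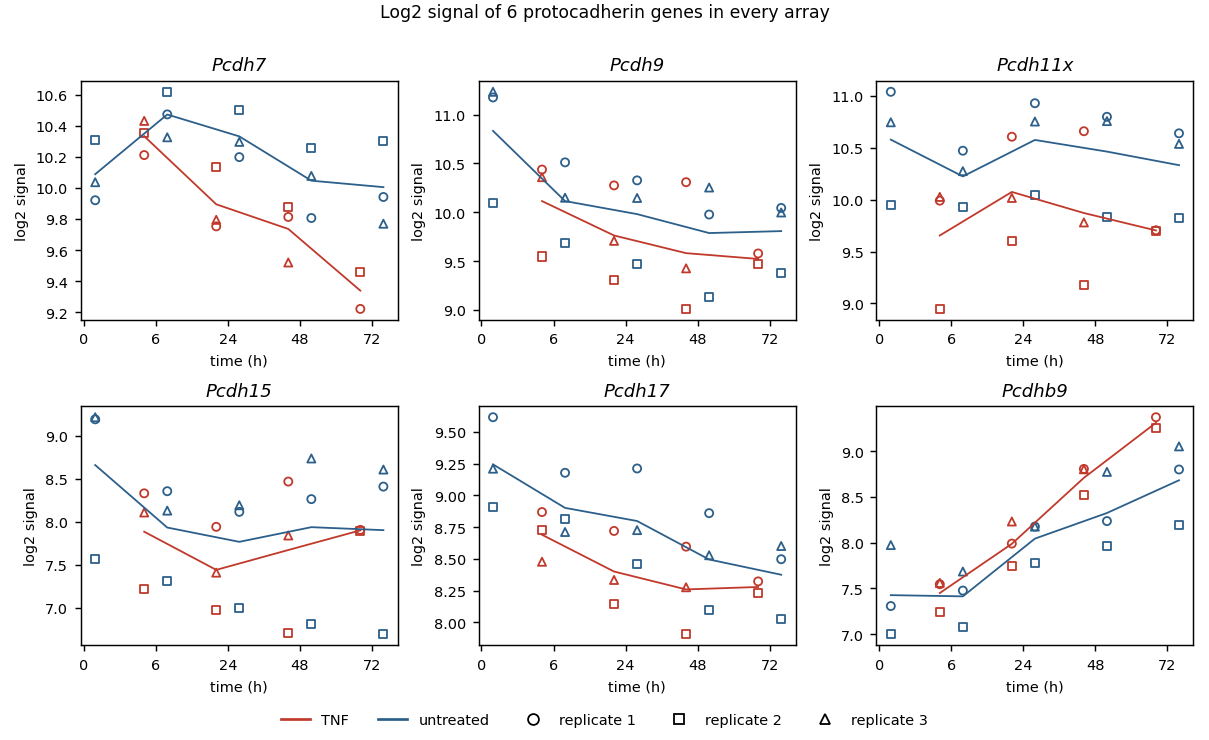
Log2 signal (y axis) of 6 protocadherin genes against time in hours (x axis, even spacing), with TNF-treated arrays in red, untreated arrays in blue, a shape for each replicate number and lines through the group means. Squares, which mark replicate 2, lie below the other symbols of their group in *Pcdh15*, by only 7.89 against 7.90 at 72 h with TNF, and the TNF-treated arrays of *Pcdh7* lie below the untreated ones at 72 h.

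Members with dim probe sets showed little. They were 17 of the 57, and 2 of them, *Cdh1* and *Pcdh1*, were called at any untreated time without the replicate block. At 72 h their median change was -0.17, against -0.08 over all 14223 dim probe sets. The 40 brighter members had a median of 0.23, against -0.02 over 21333 brighter probe sets. With the block dim *Pcdh8* was higher at 48 and 72 h, and dim *Cdh3* and *Cdh5* were lower at 72 h. *Cdh16* and *Cdh17*, the cadherins of kidney and gut, *Cdh23* of the inner ear and *Cdh26* had no call in any comparison without the block. *Cdh23* was lower with the block at 24 h (-0.30, q = 0.028), where the numbers do not pair the arrays. *Cdh16* read between 6.82 and 7.58 over the 26 arrays.

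The TNF comparisons ask whether the cytokine shifts these genes at the same time of differentiation. By limma, no member was called at 6 h (0.326% of all probe sets were, 0.312% higher and 0.0141% lower), 1 was lower at 24 h (1.75% of members, 0.863% of all, 0.627% higher and 0.236% lower), none at 48 h (1.04% of all, 0.773% higher and 0.264% lower) and none at 72 h (1.15% of all, 0.596% higher and 0.554% lower). At an unadjusted p under 0.05 there were 1768, 1999, 2316 and 3402 of all 35556 probe sets at 6, 24, 48 and 72 h. The members among them were 5, 6, 5 and 3 of 57. The median changes were -0.11, -0.09, -0.03 and -0.05, against -0.04, 0.01, -0.02 and -0.02 over all probe sets. For 44 of the 57 genes the 95% interval lay between a halving and a doubling at all 4 times. At 6 h 9 members were above 0, and at 72 h 23. In limma tests of the TNF effect at 24, 48 and 72 h against that at 6 h, 0 members passed (0.0253%, 0.104% and 0.124% of all probe sets did), and 2, 1 and 1 had an unadjusted p under 0.05.

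*Cdh20* was the called gene. TNF-treated cells read 10.74, 10.28 and 10.67 at 24 h, and untreated cells 11.30, 11.09 and 11.12. All TNF arrays lay below all untreated arrays at that time (-0.61, 95% interval -0.90 to -0.32, q = 0.0367). On the same arrays the mean over the 10 astrocyte markers was 11.68 to 11.88 with TNF and 12.06 to 12.25 without at 24 h, and 1 of the 10 was called, lower. At 48 and 72 h 0 of the 10 were called by limma, and 6 had an unadjusted p under 0.05 at each time. Of all 35556 probe sets 2316 and 3402 had such a p. The part of these markers was not tested. The call of *Cdh20* was lost without any of 5 of the 6 arrays, all but TNF replicate 1 (changes of -0.70 to -0.46), and in a fit of only the 6 arrays. The *Cdh20* arrays of the other times did not overlap either. They read 10.25, 10.45 and 10.54 with TNF and 10.85, 10.85 and 10.89 without at 6 h (-0.45, q = 0.44). At 48 h they read 10.40, 9.94 and 10.43 with TNF and 10.84, 10.64 and 10.95 without (-0.55, q = 0.0574). At 72 h they read 10.28 and 10.27 with TNF and 10.59, 10.40 and 10.72 without (-0.30, q = 0.583). Of the 57 members, 1, 3, 2 and 8 lay wholly above and 5, 6, 6 and 14 wholly below the untreated arrays at 6, 24, 48 and 72 h. Non-overlap in either direction was found in 8.55%, 14.2%, 12.2% and 41% of all probe sets at 6, 24, 48 and 72 h.

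*Cdh13* had TNF values above the untreated ones, without passing. It read 11.17, 11.37 and 11.38 with TNF and 10.88, 11.21 and 11.25 without at 6 h. At 24 h it read 10.85, 11.20 and 10.93 with TNF and 10.37, 10.77 and 10.34 without. At 48 h the values were 10.26, 10.75 and 10.45 with TNF and 9.64, 10.22 and 9.75 without, and at 72 h 10.26 and 10.19 with TNF and 9.36, 9.61 and 9.41 without. The groups overlapped at 6 h and not at 24, 48 or 72 h. The differences were 0.20, 0.50, 0.61 and 0.76, with q-values of 0.894, 0.461, 0.164 and 0.0789.

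The other members with differences near the threshold were *Pcdh7* and *Pcdh8*, both with TNF below untreated. *Pcdh7*, a δ1 protocadherin, read 9.22 and 9.46 with TNF at 72 h and 9.94, 10.30 and 9.77 without, with no overlap (-0.67, 95% interval -1.03 to -0.30, q = 0.0673). *Pcdh8*, the activity-regulated arcadlin that binds N-cadherin at synapses, was dim. It read 6.84, 6.61 and 6.75 with TNF at 48 h and 7.34, 7.16 and 7.19 without (-0.50, q = 0.0884).

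Larger differences in *Cdh19*, *Cdh22* and *Pcdh11x* came with wide errors. *Cdh19* read 7.65 and 7.75 with TNF at 72 h and 8.88, 8.51 and 8.75 without, the lowest difference of any member (-1.02, 95% interval -2.13 to 0.10, q = 0.589). *Cdh22* differed by 0.37, 0.52, 0.53 and 0.70 at 6, 24, 48 and 72 h (SE 0.369 to 0.413, q-values 0.669 to 1), and its difference was the highest of any member at 6 and 24 h. *Pcdh11x* differed by -0.57, -0.50, -0.59 and -0.63 (SE 0.393 to 0.440), the lowest of any member at 6 and 48 h. In it TNF-treated cells read 9.99, 8.95 and 10.03 at 6 h and untreated cells 10.47, 9.93 and 10.27, with replicate 2 low in both.

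For *Cdh2* the TNF intervals were narrow: the differences were -0.05, 0.02, 0.11 and 0.07 at 6, 24, 48 and 72 h, where no interval went below -0.31 or above 0.37. *Cdh1* differed by 0.03 to 0.23 and *Cdh5* by -0.20 to 0.17 over the 4 times. *Cdh6* read 10.71, 10.81 and 11.09 with TNF at 6 h and 11.30, 11.29 and 11.47 without (-0.49, q = 0.534), with no overlap. At 24, 48 and 72 h its differences were -0.42, -0.15 and -0.35. *Cdh10* differed by -0.47, -0.47, -0.33 and -0.32, with q-values of 0.594 to 0.778. In the β cluster the differences ran from -0.50 to 0.63 over all times, and none was called. At 72 h *Pcdhb9* read 9.37 and 9.25 with TNF and 8.80, 8.19 and 9.05 without (0.63, q = 0.437), while *Pcdhb15* read 9.09 and 9.24 with TNF and 9.79, 9.60 and 9.60 without (-0.50, q = 0.688).

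The partners of cadherins were read from lists. Of 12 catenins and linkers to actin, 8 were higher in untreated cells at 72 h and none was lower, with a median change of 0.93 (66.7%, against 22.8% of all probe sets in either direction). Counts of higher genes were 4, 8 and 7 at 6, 24 and 48 h, and 1 was lower at 6 h (41.7%, 66.7% and 58.3%, against 7.67%, 16.5% and 16%). With TNF 1 was lower at 48 h and at 72 h (8.33% each, against 1.04% and 1.15% of all probe sets). The gene was *Ctnna3*, which encodes the αT-catenin known from heart. It averaged 7.18 with TNF and 7.82 without at 48 h (-0.64, SE 0.128, q = 0.0103), and 7.37 and 8.35 at 72 h (-0.98, SE 0.143, q = 0.000479). Of 11 desmosomal cadherins and plakophilins 1 was higher at each untreated time, and 1 was lower at 72 h (18.2%, against 22.8%).

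Of 17 other proteins with cadherin repeats, 3 were higher and 2 lower in untreated cells at 72 h (29.4%, against 22.8%). With TNF 1 was lower at 24 h and 1 higher at 48 h (5.88% each, against 0.863% and 1.04% of all probe sets). *Fat3*, a giant cadherin, averaged 9.70 with TNF at 24 h and 10.53 without (-0.83, SE 0.179, q = 0.0235). *Clstn2*, a calsyntenin of synapses, averaged 8.67 with TNF at 48 h and 8.14 without (0.52, SE 0.116, q = 0.0244). No gene of the lists of 5 nectins, 9 repressors of classical cadherin genes, 11 proteases of cadherins or 13 regulators of the clustered protocadherin genes was called with TNF by limma. Of the regulators 8 had an unadjusted p under 0.05 at 72 h, as had 3402 of all 35556 probe sets. The median difference of the regulators was -0.44 (-0.02 over all probe sets). Of them 7 lay wholly below and 2 wholly above the untreated arrays (41% of all probe sets in either direction). At 6, 24 and 48 h 0 of the 13 had such a p. In untreated cells at 72 h those lists had 2, 1, 3 and 4 genes higher and 0, 2, 0 and 2 lower, which is 40%, 33.3%, 27.3% and 46.2% of each list, against 22.8% of all probe sets. The regulators include CTCF and cohesin, which loop promoters of the cluster to their enhancers. Of the 13, 1 was higher at 6 h (7.69%, against 7.67%), 5 at 24 h (38.5%, against 16.5%) and 2 at 48 h, when 1 was lower (23.1%, against 16%).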

How the data were processed

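Total RNA of neurosphere-derived cells was hybridized to Affymetrix MoGene 1.0 ST arrays. The deposited table holds log2 signals of 26 arrays and 35556 probe sets, which the authors made with RMA from oligo in R 3.3.1 (background correction, normalization to a common distribution, summary over probes). No further normalization was applied to the deposited values. Normalization to a common distribution cannot show a shift shared by all genes. Of the probe sets 21789 carry 1 gene symbol, 1621 several and 12146 none. The platform annotation named the probe sets, and all 57 members were matched to GRCm38.p6. The 4 members with several probe sets were represented by the one with the highest mean over all arrays. Promoter sequences are RefSeq sequences of GRCm38.p6.

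A linear model with 9 group means was fitted to the 26 arrays with limma 3.58.1 (R 4.3.3). Its 8 contrasts were TNF-treated against untreated NSPs at each of 4 times and untreated NSPs at each later time against 0 h. 3 further contrasts set the later TNF effects against the one at 6 h. q-values over all probe sets used the smoother of the qvalue method, rewritten for this work, with a threshold of 0.05, and this step was tested on simulated data. The series describes its replicates as biological; the number of arrays limits the precision. Arrays correlated at 0.947 to 0.996. Same-numbered arrays counted as paired where 3 pairs all deviated together with a correlation over 0.1 across all probe sets: this held for TNF at 6 h (0.46 to 0.67) and for untreated cells at 6 h (0.50 to 0.68), 48 h (0.30 to 0.56) and 72 h (0.14 to 0.18) against 0 h. The pairing comes from the data, as the labels give numbers only.

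Alternatives were Benjamini-Hochberg adjustment, a fit of only the arrays compared, an intensity trend plus robust prior, cyclic loess, the replicate block, leaving out the dimmest 40% of probe sets, a mean over the probe sets of a gene, and leaving out each array. Members and lists were chosen with earlier results of these data known. Named are the members called in a comparison, the 2 with the highest mean in each class, the largest change of either sign in each comparison, *Cdh1*, *Cdh2* and *Cdh5*, and the genes of the partner lists called with TNF; *Pcdh15* and other replicate-dependent genes were added after their values were seen.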

Additional observations from a re-analysis of the deposited data

How the results depend on the processing

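Over the alternatives run, no called member changed direction. The counts of called members changed as follows. With Benjamini-Hochberg adjustment 5 members were higher at 24 h and 6 at 48 h against 0 h. With only the arrays compared, 1, 2, 1 and 3 were higher and 0, 2, 4 and 6 lower in untreated cells at 6, 24, 48 and 72 h, 0 were lower with TNF at 24 h, and 2 were higher and 3 lower with TNF at 72 h. This fit uses fewer arrays, and *Cdh13* and *Pcdh18* were its higher and *Cdh19*, *Pcdhb15* and *Pcdhb16* its lower genes. Cyclic loess gave 2 lower with TNF at 48 h (*Cdh20* and *Pcdh8*) and 1 at 72 h (*Pcdh7*). Without the dimmest 40% of probe sets, 13, 12 and 15 were higher against 0 h at 24, 48 and 72 h, 3 were lower at 6 h, 1 was lower with TNF at 48 h, and 1 was higher and 1 lower with TNF at 72 h.

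With the replicate block, the counts against 0 h were 16 higher and 15 lower at 24 h, where the numbers do not pair the arrays, and 3 and 3, 14 and 11, and 17 and 13 at 6, 48 and 72 h. With TNF the block gave 0 higher and 0 lower at 6 h. At the later times, where the numbers do not pair the arrays, it gave 1 higher (*Cdh13*) and 2 lower (*Cdh20* and *Pcdh7*) at 24 h, 1 higher (*Cdh13*) and 2 lower (*Cdh20* and *Pcdh8*) at 48 h, and 2 higher (*Cdh13* and *Pcdhb9*) and 1 lower (*Pcdh7*) at 72 h, where the number 2 may not mark the same culture. Same-numbered arrays correlated at 0.03 to 0.47 at 24 h, -0.02 to 0.61 at 48 h and -0.02 to 0.08 at 72 h with TNF, and at -0.05 to 0.31 in untreated cells at 24 h. The block lost none of the 55 calls. Over all 35556 probe sets it gave 5153 higher and 5265 lower at 24 h against 0 h (3557 and 2313 without it). With TNF it gave 186, 388, 469 and 563 higher over all probe sets at 6, 24, 48 and 72 h (111, 223, 275 and 212 without it). Its counts of lower probe sets with TNF were 32, 198, 233 and 616 (5, 84, 94 and 197 without it).

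Leaving out all arrays numbered 2, chosen after seeing the data, gave 3, 3, 5 and 9 higher against 0 h, 4, 6, 9 and 10 lower (6, 24, 48 and 72 h), and 0 with TNF at each time, and it lost 18 of the 55 calls. Leaving out 1 array at a time gave, against 0 h, 1 to 3 higher and 2 to 5 lower at 6 h, 4 to 13 and 3 to 7 at 24 h, 3 to 9 and 5 to 11 at 48 h, and 7 to 17 and 7 to 11 at 72 h. With TNF it gave 0 higher and 0 to 1 lower at 24 h, 0 to 1 higher and 0 to 1 lower at 48 h, and 0 in both directions at 6 and 72 h. There the lone array left of TNF at 72 h is assumed to vary like the other groups. Cyclic loess, the intensity trend and the mean over probe sets lost 4, 0 and 1 of the 55 calls, Benjamini-Hochberg 10 and only the arrays compared 36; the cause was not tested.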
